A study of Mus musculus with 6 samples.

Results

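The genes examined here encode the proteins that form, restrain and dissolve blood clots. They were chosen by symbol, and each of the 37 symbols was found once among the 24197 genes of the deposited comparison of male with female mouse liver. By role, 18 are procoagulant, 10 are inhibitors, 6 belong to fibrinolysis, 2 to the vitamin K cycle, and Fgl1 is a fibrinogen-like protein. Livers came from intact CD-1 mice of the outbred Charles River colony, and poly-A RNA was sequenced from strand-specific libraries. Male liver was represented by 3 pools from mice aged 7 to 9 weeks, and female liver by 3 pools from mice aged 7 to 11 weeks. Pools held 12 to 17 livers. The size read for each sex was that of its pool 1, 17 livers in male and 12 in female. The upper age limit, and pool size as far as it was read, therefore went with sex and cannot be told apart from it. A library of a pool averages over its animals, so differences between single mice were not measured, and no label says whether a liver entered more than 1 pool.

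The values are the authors' means over the 3 pools of a sex, in FPKM (fragments scaled to transcript length and library size), once from the gene body and once from introns only, with the authors' ratio of male over female and adjusted p-value. No value of a single pool was analysed here. The means therefore stand without a standard deviation, and the spread between pools enters only through the authors' adjusted p. Library totals recovered from the lowest FPKM steps were between 28415535 and 42673908 reads in the male pools and between 28358105 and 41206357 reads in the female pools. Sex was checked with Xist, whose male mean was 0.0884% of its female mean, and with 4 genes of the Y chromosome, whose female means were at most 0.400% of the male means.

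Hepatocytes make most plasma clotting factors. Tissue factor binds factor VII to start the cascade, factor X then turns prothrombin into thrombin, and thrombin cuts fibrinogen into fibrin. Antithrombin, the protein C system and tissue factor pathway inhibitor limit thrombin formation, and plasmin, made from plasminogen, dissolves fibrin. Several factors need vitamin K for the carboxylation of their glutamate residues, while factor VIII, von Willebrand factor and thrombomodulin come chiefly from endothelial cells.

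Most of these genes were at similar levels in the livers of both sexes. Past an adjusted p of 0.05 in the authors' deposited table were 5 of the 37. Serpina5, F11 and Serping1 were higher in male liver (3 of 37), as were 4.61% of the 17997 genes above 0 FPKM in either sex. F7 and Kng2 were higher in female liver (2 of 37), as were 5.44% of those genes. All 5 were among the 31 members with a mean of 0.5 FPKM or more, a share of 16.1% that was near the 13.8% of the 10936 genes of any kind above that minimum. Above a minimum mean of 20 FPKM, 4 of 25 members passed, against 25.6% of 1478 genes. Ratios within 1.25-fold of equal were held by 29 of the 31 members at 0.5 FPKM or more (93.5%), compared with 79.7% of all genes at that minimum. Their median log2 ratio of male over female was -0.03, and that of all genes at the same minimum was 0.01. These are descriptions of a list chosen by function, and no test of the list as a whole was made.

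**Figure D1:**
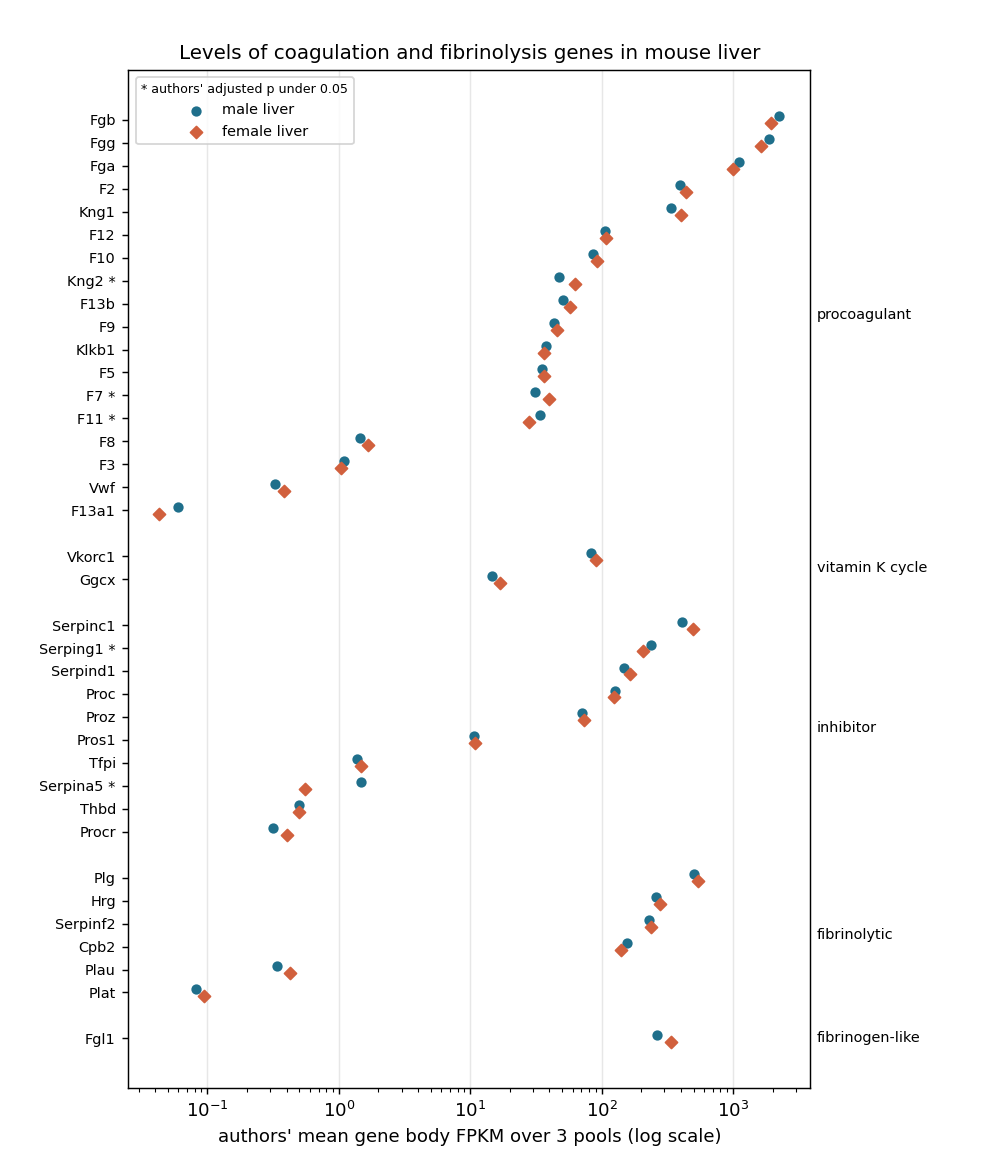
Authors' mean gene body FPKM (log axis) of the 37 genes in male liver (circles) and female liver (diamonds), grouped by role and ordered by mean level; a star marks an authors' adjusted p under 0.05. The fibrinogen genes stand at the top between 995.2 and 2239 FPKM, and Serpina5 shows the widest separation between the sexes among the starred genes.

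**Figure D2:**
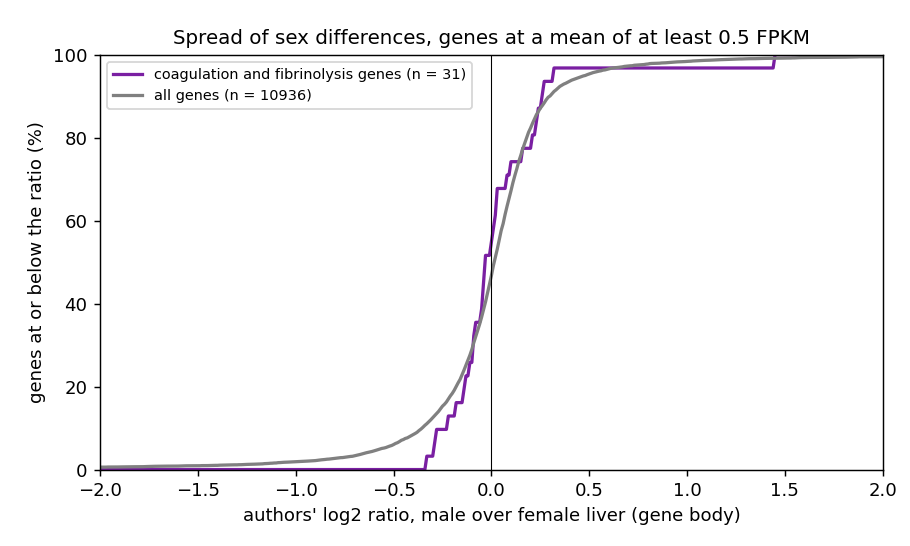
Cumulative share of genes (vertical axis, percent) at or below a given log2 ratio of male over female liver (horizontal axis, authors' gene body ratio) for the 31 coagulation and fibrinolysis genes and the 10936 genes of all kinds with means of 0.5 FPKM or more. The curve of the coagulation genes is steep around 0, with Serpina5 alone at 1.45.

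The members whose levels carry these results are introduced with the 250 bases before their start in RefSeq's annotation of build GRCm38.p6, printed 5′ to 3′ on the gene's strand. Serpina5, F11, F7 and Kng2 are shown because they passed the threshold (Serping1, which also passed, is named only), and the fibrinogen genes Fga, Fgb and Fgg because they are the most abundant members and lie side by side. Capitals mark matches on either strand to TTCNNNGAA (a STAT motif), GTTAAT (part of an HNF1 site), CAAAGTCCA (HNF4), TTGCNNAA (C/EBP), CTGGGA (an interleukin-6 response element known from rat fibrinogen genes) or TATAAA, the letters of the TATA box.
Serpina5 (chr12:104100863-104101112, plus strand): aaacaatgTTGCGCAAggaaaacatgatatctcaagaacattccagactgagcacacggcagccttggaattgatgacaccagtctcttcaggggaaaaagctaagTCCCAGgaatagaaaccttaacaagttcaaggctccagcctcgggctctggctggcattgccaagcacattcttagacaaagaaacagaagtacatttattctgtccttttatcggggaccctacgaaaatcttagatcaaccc
F11 (chr8:45262032-45262281, minus strand): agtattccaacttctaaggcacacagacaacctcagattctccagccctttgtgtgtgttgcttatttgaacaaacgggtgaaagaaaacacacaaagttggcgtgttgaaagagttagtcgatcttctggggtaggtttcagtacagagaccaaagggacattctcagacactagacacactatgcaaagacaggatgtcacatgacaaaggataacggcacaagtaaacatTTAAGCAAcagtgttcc
F7 (chr8:13025784-13026033, plus strand): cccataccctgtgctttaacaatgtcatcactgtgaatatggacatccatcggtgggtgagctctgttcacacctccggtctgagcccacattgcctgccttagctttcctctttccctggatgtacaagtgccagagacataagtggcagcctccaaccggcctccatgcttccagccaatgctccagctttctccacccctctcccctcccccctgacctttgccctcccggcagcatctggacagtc
Kng2 (chr16:23029102-23029351, minus strand): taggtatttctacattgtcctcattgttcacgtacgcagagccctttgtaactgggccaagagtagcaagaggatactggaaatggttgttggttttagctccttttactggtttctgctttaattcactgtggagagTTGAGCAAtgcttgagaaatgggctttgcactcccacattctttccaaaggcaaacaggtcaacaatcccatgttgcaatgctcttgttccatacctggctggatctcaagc
Fga (chr3:83025903-83026152, plus strand): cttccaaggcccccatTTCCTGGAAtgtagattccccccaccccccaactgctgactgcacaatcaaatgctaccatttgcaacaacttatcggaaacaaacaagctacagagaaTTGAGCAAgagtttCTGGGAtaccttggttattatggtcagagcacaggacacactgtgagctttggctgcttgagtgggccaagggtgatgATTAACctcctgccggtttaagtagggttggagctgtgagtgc
Fgb (chr3:83049864-83050113, minus strand): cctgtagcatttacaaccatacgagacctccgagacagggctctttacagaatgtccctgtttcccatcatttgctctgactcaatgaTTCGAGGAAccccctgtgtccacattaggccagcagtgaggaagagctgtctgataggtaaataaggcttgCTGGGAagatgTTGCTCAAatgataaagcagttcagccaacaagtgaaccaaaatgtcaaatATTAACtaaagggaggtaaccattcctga
Fgg (chr3:83007474-83007723, plus strand): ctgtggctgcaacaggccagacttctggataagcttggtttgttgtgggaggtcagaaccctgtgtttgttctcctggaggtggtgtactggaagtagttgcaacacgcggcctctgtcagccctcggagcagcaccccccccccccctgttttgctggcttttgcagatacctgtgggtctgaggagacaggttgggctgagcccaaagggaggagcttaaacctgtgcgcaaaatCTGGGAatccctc

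In Fga the C/EBP match began 135 bases and CTGGGA 121 bases before the start, and in Fgb they began 80 and 91 bases before the start. Both genes also held a STAT match and the HNF1 motif, which began 43 bases before the start in Fga and 29 bases in Fgb. Fgg held CTGGGA 13 bases before its start and none of the other motifs. The window of F7 matched none of the 6 motifs, which says only that these letters are not in it. Promoter windows were matched for 28 members, which had 30 windows. The number with each motif was the same by window as by gene. For comparison all 32851 windows were used, with no minimum level in liver. TTGCNNAA was found in 10 of these 28 genes and in 9.56% of all 32851 windows, CTGGGA in 12 and 27.0%, GTTAAT in 4 and 6.43%, TTCNNNGAA in 4 and 7.02%, TATAAA in 2 and 12.4%, and CAAAGTCCA in 0 and 0.384%. A match is a description of the letters and was not tied to the ratios between the sexes.

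Tissue factor and factor VII open the cascade. F3, tissue factor, averaged 1.10 FPKM in male liver and 1.04 FPKM in female liver, with an adjusted p of 1 in the authors' deposited table. F7 (chromosome 8, 13026034 to 13035809, build mm9), the protease that tissue factor binds, averaged 31.2 FPKM in male liver and 39.8 FPKM in female liver. By the authors' deposited table the gene was 1.23-fold higher in female liver (adjusted p of 0.0162). F7 is followed on the chromosome by F10, 1.5 kb on, and then by Proz, 4.2 kb further, with no other listed gene between them. F10, which encodes factor X, averaged 85.8 FPKM in male liver and 91.8 FPKM in female liver, and Proz, the cofactor that helps to inactivate factor Xa, 71.3 FPKM in male liver and 72.8 FPKM in female liver. Both had an adjusted p of 1 in the authors' deposited table, and whether F7 differed from its neighbours was not tested.

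The contact factors start clotting on charged surfaces and release bradykinin from kininogen. F11, which activates factor IX (chromosome 8, 46326524 to 46347385), averaged 33.6 FPKM in male liver and 28.0 FPKM in female liver. By the authors' deposited table the gene was 1.25-fold higher in male liver (adjusted p of 0.0124). Klkb1, plasma prekallikrein and a close relative of F11 in structure, lies 7.4 kb away and averaged 37.5 FPKM in male liver and 36.3 FPKM in female liver, with an adjusted p of 0.921 in the authors' deposited table. Of the 50-base windows of its longest transcript in GENCODE M21, 42.7% also occur in other genes, nearly all in the gene model Gm45753. The windows were compared without their position, so a copy elsewhere cannot be told from a model at the same locus. No other listed gene overlapped Klkb1, and whether its reads were shared was not tested. F12, factor XII, averaged 105 FPKM in male liver and 108 FPKM in female liver with an adjusted p of 1 in the authors' deposited table. Kng1 and Kng2 both encode kininogen in the mouse, where the gene is duplicated. Kng2 (chromosome 16, 22987408 to 23029174) averaged 47.7 FPKM in male liver and 62.3 FPKM in female liver, and the authors' deposited table puts it 1.26-fold higher in female liver (adjusted p of 0.0192). Kng1 averaged 338 FPKM in male liver and 400 FPKM in female liver, and it did not pass: the authors' deposited table lists 1.14-fold toward female liver (adjusted p of 0.191). Of the same kind of windows in Kng2, 18.2% also occur in Kng1, so the split of reads between these genes, and with it the Kng2 difference, is uncertain.

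Factor IX with its cofactor factor VIII activates factor X, and von Willebrand factor carries factor VIII in plasma. F9 averaged 43.4 FPKM in male liver and 46.0 FPKM in female liver. F8 averaged 1.46 FPKM in male liver and 1.68 FPKM in female liver, and Vwf 0.328 FPKM in male liver and 0.383 FPKM in female liver. None of these passed in the authors' deposited table, with adjusted p-values of 1 for F9, 0.656 for F8 and 0.955 for Vwf. Factor X with factor V then makes thrombin. F5, the cofactor, averaged 35.2 FPKM in male liver and 36.6 FPKM in female liver, and F2, prothrombin, 395 FPKM in male liver and 438 FPKM in female liver. The authors' deposited table gave both, like F10, ratios within 1.07-fold of equal, and none of them passed.

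Fibrinogen, the substrate of thrombin, is built from 3 chains whose genes lie together on chromosome 3. Fgb averaged 2239 FPKM in male liver and 1946 FPKM in female liver, Fgg 1864 FPKM in male liver and 1642 FPKM in female liver, and Fga 1102 FPKM in male liver and 995.2 FPKM in female liver. By mean level Fgb was the 11th and Fgg the 13th most abundant of all listed genes, and Fga the 26th. Together these chains made up 5205 of the 8925 FPKM summed over the 37 genes in male liver and 4582 of 8631 FPKM in female liver. All 3 ratios in the authors' deposited table were above 1, between 1.15 and 1.20, with adjusted p-values between 0.264 and 0.514, so none passed. After quantile normalization of the means, their log2 ratios of male over female were -0.13 for Fga, -0.30 for Fgb and -0.22 for Fgg. From mean FPKM with a pseudocount of 0.1 they stayed above 0, at 0.15, 0.20 and 0.18 in the same order. After rescaling without the 50 most abundant genes they were 0.15, 0.21 and 0.19. This direction therefore depended on the scaling. In introns the chains had adjusted p-values of 1 in the authors' deposited table, with Fga at 14.2 FPKM in male liver and 17.4 FPKM in female liver, Fgb at 14.6 FPKM in male liver and 16.6 FPKM in female liver, and Fgg at 29.7 FPKM in male liver and 30.4 FPKM in female liver.

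Factor XIII joins fibrin strands. F13b, its carrier subunit, averaged 50.9 FPKM in male liver and 57.1 FPKM in female liver (adjusted p of 0.755 in the authors' deposited table). F13a1, the catalytic subunit known from megakaryocytes and macrophages, averaged 0.0598 FPKM in male liver and 0.0431 FPKM in female liver, the lowest level among the 37 genes. On the longest GENCODE transcript this is about 26 reads over the male pools and 18 over the female pools, and it did not pass.

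In the vitamin K cycle, Ggcx, the carboxylase of clotting factors, averaged 14.7 FPKM in male liver and 16.8 FPKM in female liver. Vkorc1, the reductase that warfarin blocks, averaged 82.6 FPKM in male liver and 91.1 FPKM in female liver. Neither passed in the authors' deposited table, with adjusted p-values of 0.725 and 1. Of the 50-base windows of the longest GENCODE transcript of Vkorc1, 50.5% also occur in the gene model Gm21974. Windows were compared without their position, so a copy elsewhere cannot be told from a model at the same locus. No other listed gene overlapped Vkorc1, and whether reads were shared was not tested. Among the 7 members that this carboxylation serves, F2, F7, F9, F10, Proc, Pros1 and Proz, F7 passed and the other 6 did not, a share of 14.3% beside 13.8% of all genes at 0.5 FPKM or more.

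The inhibitors held the widest separation. Serpina5 (chromosome 12, 105339323 to 105344347) encodes protein C inhibitor, a serpin that human liver secretes and that in mice is known mainly from the reproductive tract. It averaged 1.46 FPKM in male liver and 0.553 FPKM in female liver. The authors' deposited table gives a 2.72-fold higher male level and an adjusted p of 1.12e-14. The means amount to about 345 reads over the male pools and 129 over the female pools. Serping1 (chromosome 2, 84605517 to 84615586), C1 inhibitor, which blocks factor XIIa, plasma kallikrein and complement C1, averaged 236 FPKM in male liver and 205 FPKM in female liver. The authors' deposited table puts it 1.20-fold higher in male liver, and its adjusted p of 0.0306 was the largest among the 5 genes that passed. Serpinc1, antithrombin, averaged 406 FPKM in male liver and 491 FPKM in female liver. At 1.17-fold toward female liver and an adjusted p of 0.0771, the authors' deposited table leaves it just outside the threshold. Serpind1, heparin cofactor II, did not pass at 149 FPKM in male liver and 164 FPKM in female liver.

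The protein C pathway shuts off factors Va and VIIIa. Proc, protein C, averaged 127 FPKM in male liver and 125 FPKM in female liver, and its cofactor Pros1, protein S, 10.7 FPKM in male liver and 10.9 FPKM in female liver. The endothelial receptors of the pathway were low: Thbd, thrombomodulin, averaged 0.498 FPKM in male liver and 0.495 FPKM in female liver, and Procr, the protein C receptor, 0.318 FPKM in male liver and 0.402 FPKM in female liver. Tfpi, tissue factor pathway inhibitor, averaged 1.37 FPKM in male liver and 1.48 FPKM in female liver. All of these had an adjusted p of 1 in the authors' deposited table.

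None of the 6 fibrinolytic genes passed in the authors' deposited table, in gene bodies or in introns. Beside this stand 13.8% of all genes at 0.5 FPKM or more in gene bodies and 3.16% of those above 0 in introns. With 6 genes at such shares, none passing says nothing particular about this role. Plg, plasminogen, averaged 506 FPKM in male liver and 536 FPKM in female liver and was the most abundant member outside fibrinogen. Its activators were low, with Plat (tissue-type) at 0.0812 FPKM in male liver and 0.0946 FPKM in female liver and Plau (urokinase) at 0.340 FPKM in male liver and 0.424 FPKM in female liver. Plat corresponded to about 36 reads over the male pools and 41 over the female pools, so a difference of the size seen for F7 was not detectable at this depth. The brakes on fibrinolysis were abundant. Serpinf2, the plasmin inhibitor, averaged 228 FPKM in male liver and 236 FPKM in female liver, and Cpb2, a carboxypeptidase that trims plasminogen-binding sites off fibrin, 156 FPKM in male liver and 139 FPKM in female liver (adjusted p of 1 and 0.159 in the authors' deposited table). Hrg, a plasma protein that binds plasminogen and heparin, averaged 258 FPKM in male liver and 276 FPKM in female liver, and Fgl1, a secreted protein of the fibrinogen family that does not form clots, averaged 265 FPKM in male liver and 335 FPKM in female liver with an adjusted p of 0.523 in the authors' deposited table.

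Intron reads, which come mainly from RNA not yet spliced, were compared in the same way. By the authors' deposited p-values 1 of the 37 genes passed in introns, against 3.16% of the 16569 genes above 0 there. This was Serpina5, at 0.538 FPKM in male liver and 0.182 FPKM in female liver (1.76% of those genes passed as higher in male liver). Its intron level was 3.09-fold higher in male liver by the authors' deposited table, and the adjusted p was 4.30e-07. F11, F7 and Kng2 had the same direction in introns as in gene bodies, by 1.20-fold, 1.31-fold and 1.43-fold in the authors' deposited table, without passing (adjusted p of 0.991, 0.469 and 0.913). Serping1 pointed the other way, at 2.50 FPKM in male liver and 2.90 FPKM in female liver. Among the 30 members at a gene body mean of 0.5 FPKM or more with intron reads, 16 had the same direction in both kinds of reads and 14 the opposite, beside 6945 the same of 10341 genes of any kind. With no minimum, 17 of 35 members had the same direction. Fgl1 had the largest intron ratio toward female liver among members at 0.5 FPKM or more in introns, 0.558 FPKM in male liver and 1.03 FPKM in female liver, which the authors' deposited table lists as 1.67-fold (adjusted p of 0.910). Serpind1 and Thbd were listed at 0 in introns in both sexes, so neither could be compared there, which leaves 35 of the 37 members. The listed span of Thbd (chromosome 2, 148230207 to 148233924) is no longer than its longest GENCODE transcript of 3723 bases. It therefore leaves no room for an intron. Serpind1 lies wholly inside the listed span of Pi4ka, which GENCODE places on the opposite strand.

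**Figure D3:**
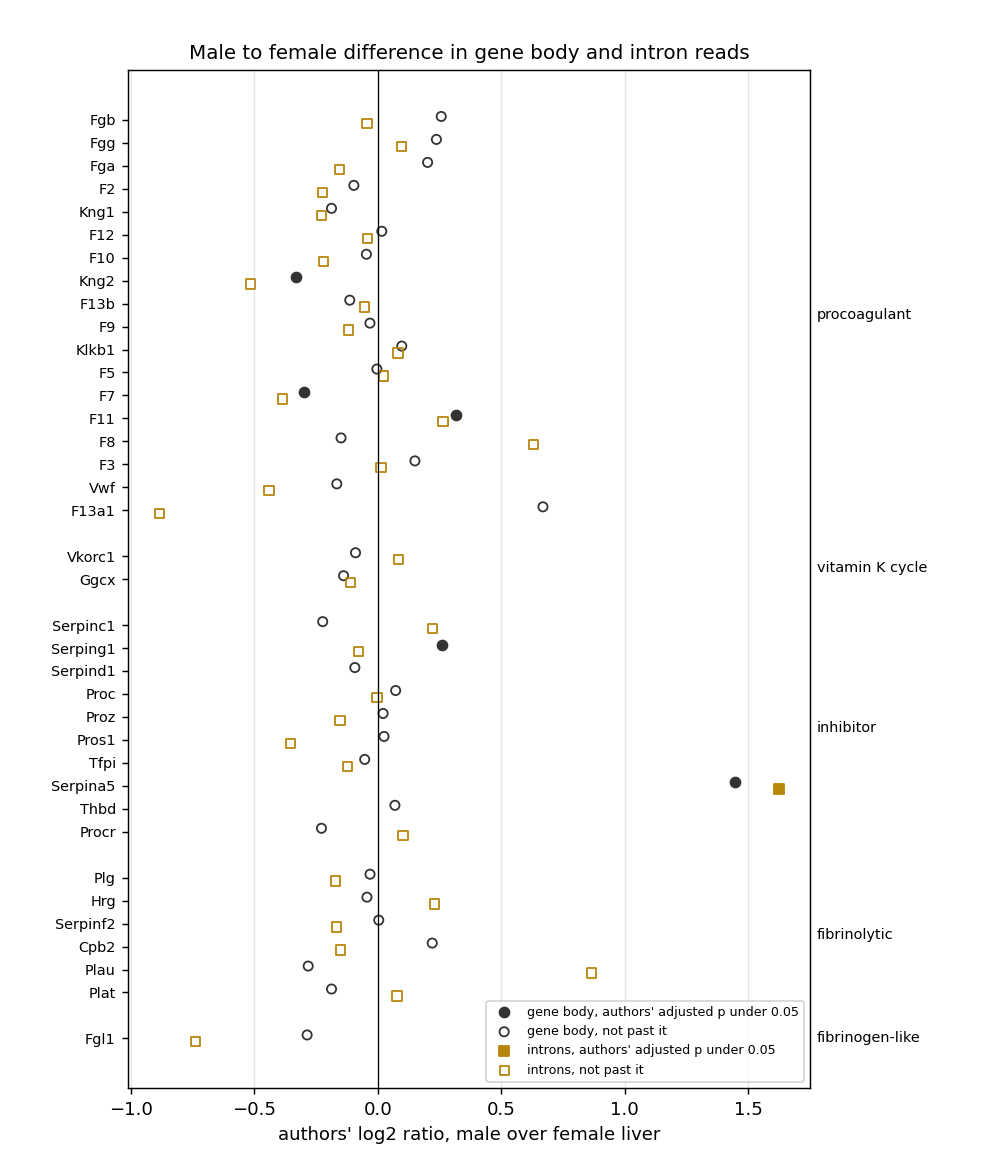
Authors' log2 ratio of male over female liver (horizontal axis) for each gene, from gene body reads (circles) and intron reads (squares), grouped by role; filled symbols mark an authors' adjusted p under 0.05. Serpina5 lies at 1.45 in gene bodies and 1.63 in introns, the other filled symbols lie between -0.33 and 0.32, and Fgl1 lies at -0.74 in introns without passing.

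Serpina5 also stood apart from the other members in how much intron signal it had. Intron FPKM over gene body FPKM was 36.7% in male liver and 32.9% in female liver, or 35.7% over both sexes. Gene body values exclude intron reads and the scale of the intron values is not known. This percentage is therefore a ratio of 2 values and not a part of a whole. Its median over the 35 genes was 0.921%, and the next highest, Procr, reached 6.89%. Over all genes at 0.5 FPKM or more with intron reads, 1.39% had a percentage as high. The nearest listed gene before Serpina5, 14.2 kb away on the same strand, is Serpina4-ps1, a serpin pseudogene at 195 FPKM in male liver and 102 FPKM in female liver. Its intron FPKM over gene body FPKM was 33.8%, with intron means of 65.9 FPKM in male liver and 34.5 FPKM in female liver, and the authors' deposited table gave it a 1.98-fold higher male level with an adjusted p of 1.64e-06. On the other side, Serpina3a, 6.6 kb away, averaged 0.361 FPKM in male liver and 0.122 FPKM in female liver, 2.98-fold higher in male liver by the authors' deposited table. Serpina12, Serpina9 and Serpina11, on the opposite strand between 56.7 and 111.2 kb away, also passed in the authors' deposited table, with 3.55-fold, 1.88-fold and 1.5-fold higher male levels. The part of neighbouring transcription in the Serpina5 values was not tested.

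**Figure D4:**
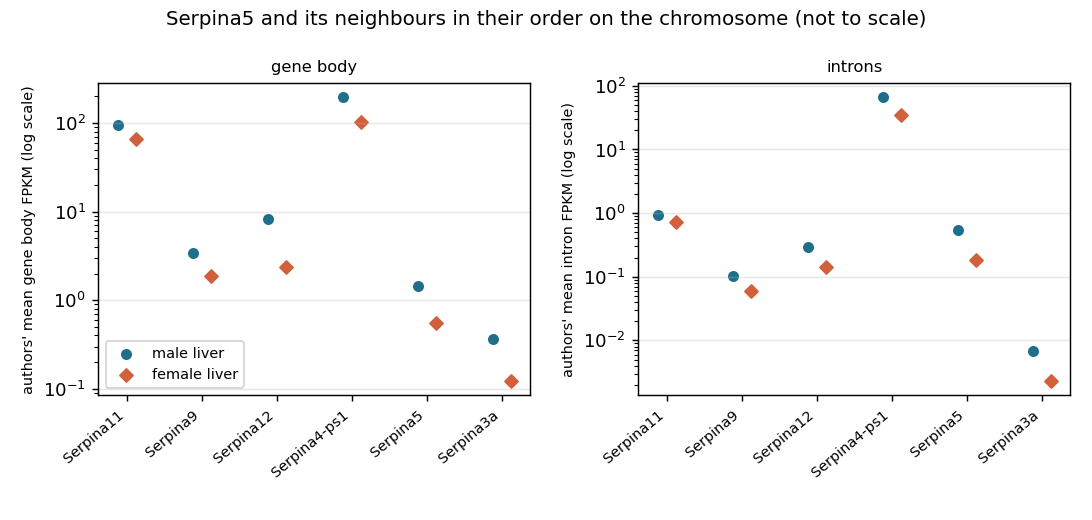
Authors' mean FPKM (log axes) in male liver (circles) and female liver (diamonds) for Serpina5 and the listed genes around it, in chromosomal order, from gene bodies (left) and introns (right). The mean of every gene shown is higher in male liver in both panels. In introns Serpina11, Serpina9 (authors' adjusted p of 0.284 and 0.218) and Serpina3a did not pass. Serpina4-ps1 is the most abundant in both panels, at 65.9 FPKM in male liver and 34.5 FPKM in female liver in introns.

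The 10 hepatocyte markers summed to 25410 FPKM in male liver and 32108 FPKM in female liver, and by the authors' deposited p-values 2 were higher in male liver and 3 in female liver. The gap between these sums rests on Alb, albumin, at 12608 FPKM in male liver and 19411 FPKM in female liver. The other 9 markers summed to 12802 FPKM in male liver and 12697 FPKM in female liver, but single markers among them differed both ways. Apoa1 and Serpina1c passed as higher in male liver, and Apoc3 and Cps1 as higher in female liver. Of all 10 markers, 3 had ratios above 1 and 7 below 1 in the authors' deposited table. Markers of other cells were present at lower levels. The 11 sinusoidal endothelial markers summed to 86.7 FPKM in male liver and 106 FPKM in female liver. All 11 had ratios below 1 in the authors' deposited table, and Gpr182 and Oit3 passed. Beside them, the 6 members known chiefly from endothelium, F8, Vwf, Thbd, Procr, Tfpi and Plat, summed to 4.06 FPKM in male liver and 4.54 FPKM in female liver, and 5 of them had ratios below 1 without passing. Ratios below 1 were also held by 21 of the 37 members and by 9110 of the 17997 genes above 0 FPKM. Plat changed direction after quantile normalization of the means. In a tissue sample, fewer cells of a type and less RNA per cell cannot be told apart. All 7 measured Kupffer cell markers passed as lower in male liver by the authors' deposited p-values (64.1 FPKM summed in male liver, 102 FPKM in female liver). The 8 megakaryocyte and platelet markers summed to 1.47 FPKM in male liver and 1.12 FPKM in female liver, with none past the threshold. All 8 had ratios above 1 in the authors' deposited table, at means of at most 0.463 FPKM. Treml1 was listed at 0 in female liver. Of 8 stellate cell markers 3 passed as lower in male liver by the same p-values, and 7 had ratios below 1 and 1 above. Beside the counts of these lists, 5.44% of the 17997 genes above 0 FPKM passed as higher in female liver. The part of these cell types in the values of the clotting genes was not tested.

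Other genes of the pathway were read from a list of 38, of which 37 were in the table. By the authors' deposited p-values 5 of them were higher in male liver (background 4.61%) and 5 in female liver (background 5.44%). Together this was 27.0% of the list, but the called share among all genes rose with level. It was 13.8% of genes at 0.5 FPKM or more and 25.6% at 20 FPKM or more in either direction. The list was not matched to a background by level, so no excess can be read from these counts. Toward male liver, Serpine2, a thrombin inhibitor also called protease nexin, averaged 0.454 FPKM in male liver and 0.219 FPKM in female liver, 2.09-fold by the authors' deposited table (adjusted p of 0.0129). F2r, the thrombin receptor PAR1, averaged 4.77 FPKM in male liver and 2.87 FPKM in female liver, 1.72-fold by the authors' deposited table (adjusted p of 1.15e-09). Serpina1a, one of several near-identical genes of alpha-1-antitrypsin, was 1.51-fold higher in male liver by the authors' deposited table, a value made uncertain by those copies. Toward female liver, Cd36, a receptor of thrombospondin, averaged 2.95 FPKM in male liver and 4.98 FPKM in female liver, 1.63-fold by the authors' deposited table (adjusted p of 5.65e-08). Gas6, a vitamin K-dependent relative of protein S, averaged 10.3 FPKM in male liver and 17.3 FPKM in female liver, 1.62-fold by the authors' deposited table (adjusted p of 1.52e-05). Anxa5, which covers the phospholipids on which clotting factors assemble, was 1.39-fold higher in female liver by the authors' deposited table (adjusted p of 0.000306). The most abundant that did not pass were Apoh, a phospholipid-binding plasma protein, Asgr1, a subunit of the asialoglycoprotein receptor, and Fn1, fibronectin. Apoh averaged 822 FPKM in male liver and 834 FPKM in female liver, Asgr1 151 FPKM in male liver and 162 FPKM in female liver, and Fn1 92.2 FPKM in male liver and 112 FPKM in female liver.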

How the data were processed

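The table deposited by the authors sets male against female liver for RefSeq genes on mouse build mm9. TopHat2, featureCounts and edgeR are named in the submitters' processing notes, without versions or the step each served. Per the file headers, it holds mean FPKM per sex for gene bodies, mean FPKM per sex for introns, a normalized ratio (male over female) and an adjusted p-value for each. Not given in the sources used here are how the p-values deposited by the authors were adjusted and which length and total scale the intron signal deposited as FPKM. For 9421 genes at 1 FPKM or more, the deposited ratio exceeded that of the means by a median factor of 1.04. Gene body values exclude intron reads, since 929 genes stood at 0 in gene bodies and above 0 in introns.

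The 37 genes and the lists were chosen with earlier results of these data known. A gene was called at an authors' adjusted p under 0.05. Every member is given; named genes of the pathway list were at most 3 called in each direction, by fold, and at most 3 uncalled, by mean level. A model over pools could not be fitted to means. Starts were raised by 1 base, because listed end minus start equalled the RefSeq length for 9770 of 19892 genes and was 1 short of it for 522. For 5 members with more than 1 listed location the first is printed. Library totals came from 1221 small RNA genes, where a lone read in a pool fixes the FPKM step, and the recovery was tested on simulated data. At these totals 1 read per kilobase in a pool adds between 0.00781 and 0.0118 to a mean FPKM. Reads per gene are estimates from FPKM, the longest GENCODE M21 transcript and the summed totals. Promoters are from RefSeq, build GRCm38.p6, and no mm9 coordinate was converted. Python 3.11.15, numpy 2.4.6, pandas 2.3.3 and matplotlib 3.10.9 were used.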

Additional observations from a re-analysis of the deposited data

How the results depend on the processing

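No paired analysis was possible because the table holds means per sex and no columns for the numbered pools. For the same reason no pool was left out in turn. The 5 members past the threshold in gene bodies became 1, Serpina5, both at an adjusted p under 0.01 and with a minimum fold of 1.5. They became 4 without Kng1 and Kng2, an alternative chosen after seeing the data. The single member past it in introns became 0 at a mean of at least 2 FPKM, because Serpina5 lies under that minimum. The 10 pathway genes became 5 with a minimum fold of 1.5.

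The median log2 ratio of the members in introns, -0.09, was -0.21 from mean FPKM with a pseudocount of 0.01, where all genes had a median of -0.10, a shift of -0.10 from the authors' ratios. In gene bodies the median stayed between -0.09 and -0.03 under the 8 alternatives. Serping1 reversed in introns, with a log2 ratio of -0.077 against 0.26 in gene bodies. F11, F7 and Kng2 kept their direction there without passing, and the cause was not tested. With a pseudocount of 1 the Serpina5 log2 ratio was 0.67. Under 3 other scalings 28 of the 37 members kept their direction, and F12, F9, Fga, Fgb, Fgg, Plat, Pros1, Proz and Serpinf2 did not under at least 1 of them. The gene body median of all genes itself shifted by -0.052 with a pseudocount of 0.1. It shifted by -0.046 after rescaling without the 50 most abundant genes. The authors' log2 ratios of F12, Pros1, Proz and Serpinf2, between 0.0046 and 0.026, are smaller than these shifts. Depth limits F13a1 and Plat most, with between 18 and 41 estimated reads per sex, so that small differences there were not detectable.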
